A study of Drosophila melanogaster with 16 samples.

Results

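The contractile genes of larval muscle were followed across 3 groups of whole larvae of *Drosophila melanogaster*. The genes were *Mhc*, *Mlc1*, *Mlc2*, *Act57B*, *Act87E*, *Tm2*, *up*, *wupA*, *bt* and *sls*, and each was taken by the array's probe sets that carry its symbol alone. This rule found 7 of the 10 genes, with 9 of the 18769 probe sets tested and among 11982 genes with a probe set of their own. *sls* had 3 probe sets and *Mlc1*, *Mlc2*, *Act87E*, *Tm2*, *up* and *bt* had 1 each. *Mhc* (muscle myosin heavy chain), *Act57B* (a larval muscle actin) and *wupA* (troponin I) had no probe set named for them in the table used here, and they were not analysed here.

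In striated muscle, myosin thick filaments pull on actin thin filaments that are anchored at Z discs, and the repeating unit between Z discs is the sarcomere. Calcium starts contraction when it binds troponin, which moves tropomyosin along the thin filament and opens the sites that myosin binds. The body wall muscles of the Drosophila larva are multinucleate fibres that enlarge many times during larval growth by adding sarcomeres, and they move the larva as it crawls and feeds.

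The 3 groups were KTT-LC50, KTT and CS. KTT-LC50 larvae were of the stock Ama-KTT/M/2, raised on food with α-amanitin, a mushroom toxin that blocks RNA polymerase II. The dose kills part of that stock (1.5 μg/g by the methods, although the sample labels write 1.5 mg/g). The labels name it the LC-50, whereas by the methods it lies slightly below that. Exposure began in the first instar, not all larvae in the tubes survived, and the pools were drawn from survivors. KTT larvae were of the same stock on non-toxic food, and CS larvae were of Canton-S, a wild-type stock sensitive to the toxin, also on non-toxic food. Ama-KTT/M/2 resists α-amanitin and was made isogenic for chromosomes 2 and 3 through crosses with a balancer stock, so that it differs from Canton-S by its whole origin. Each array held RNA of a pool of 10 whole larvae, late in the third instar and still feeding, with 6 pools for KTT-LC50, 5 for KTT and 5 for CS. Sex and exact age are not given in the sources used here, larvae on the toxin grew more slowly, and no muscle was dissected. In whole larvae, fewer muscle cells and less RNA per muscle cell cannot be told apart. All values are PLIER intensities, which summarise the probes of a probe set on a linear scale, and they are compared only within a probe set.

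Muscle transcripts were well detected in all groups: each of the 9 probe sets was brighter than at least 67.7% of the probe sets of every array. Across groups, array medians ranged between 62.4 and 72.9. KTT replicate 2 correlated least with its own group (mean r = 0.977 over all probe sets) and was the lowest KTT pool for all 9 probe sets, so the values without it are given below. The glue genes of the salivary gland and the marker genes of the fat body, which larvae switch on late in the third instar, separated the pools by orders of magnitude. The 6 glue genes together had 8.04 to 51929 in KTT-LC50 pools, 6.04 to 14.5 in KTT pools and 1640 to 26436 in CS pools.

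Between the stocks on non-toxic food, KTT larvae had lower intensities of actin, troponin T and both giant elastic proteins, and a higher intensity of the regulatory myosin light chain. *Act87E*, *sls*, *bt* and *up* fell and *Mlc2* rose, by 1.22-fold to 1.74-fold, while *Mlc1* and *Tm2* did not pass the test. By limma with Benjamini-Hochberg adjustment over all probe sets, 4 of 7 genes were lower in KTT, where 20.3% of all genes were, and 1 was higher, where 28.7% of all genes were (49% in either direction). No member reached 2-fold, where 2.85% of all genes were lower and 4.26% higher by that much. The median log2 fold change of the 7 was -0.29, against 0.02 over all genes.

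The thick filament was represented by the light chains of muscle myosin. *Mlc2*, the regulatory light chain, had 685, 478, 589, 574 and 587 in the KTT pools, against 333, 347, 292, 404 and 268 in the CS pools. Every KTT pool was above every CS pool, and the log2 fold change was 0.80 (SE 0.13, adjusted p = 7.83e-05 by limma). *Mlc2* was read from 1 probe set, brighter than 73.8% to 86.5% of the probe sets, depending on the array. The probe set of *Mlc1* was brighter than 99.2% to 99.8%. With no other probe set of *Mlc2*, its direction could not be checked within the gene. *Mlc1*, the alkali light chain, had 9749, 8695, 9489, 9771 and 9863 in the KTT pools, against 10918, 11118, 9363, 10341 and 9409 in the CS pools. The KTT and CS pools of *Mlc1* overlapped, and its log2 fold change of -0.10 (95% interval -0.23 to 0.02) did not pass the test (adjusted p = 0.181 by limma).

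The thin filament was represented by an actin, a tropomyosin and a troponin. *Act87E*, a muscle actin, had 3502, 3171, 4019, 4831 and 5214 in the KTT pools, against 7018, 7114, 5921, 6235 and 6303 in the CS pools. All KTT pools were below all CS pools, with a log2 fold change of -0.67 (SE 0.12, adjusted p = 0.000227 by limma). The probe set of *Act87E* is of a kind that shares probes with transcripts of other genes, and the coding sequences of fly actins are nearly identical, so its signal may hold other actins. *up*, which encodes troponin T, had 4004, 3546, 4166, 4628 and 4853 in the KTT pools, against 5662, 5495, 4739, 5185 and 4755 in the CS pools. Only KTT replicate 5 reached into the CS range, and the log2 fold change was -0.29 (SE 0.08, adjusted p = 0.00737 by limma). *Tm2*, a muscle tropomyosin whose probe set also shares probes, had 4894, 3831, 5019, 5320 and 5340 in the KTT pools, against 6099, 5898, 4974, 5459 and 4965 in the CS pools. These pools overlapped, and the log2 fold change was -0.17 (95% interval -0.35 to 0.01, adjusted p = 0.123 by limma).

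The giant elastic proteins of the sarcomere were represented by *bt* and *sls*. *bt*, which encodes Projectin, had 5092, 4022, 5308, 5532 and 5985 in the KTT pools, against 7269, 7648, 6615, 6844 and 5926 in the CS pools. KTT replicate 5 was just above CS replicate 5 and the other pools were apart, with a log2 fold change of -0.41 (SE 0.09, adjusted p = 0.00135 by limma). The brightest of the probe sets of *sls*, which encodes the titin-like protein Sallimus, had 929, 643, 1003, 1209 and 1345 in the KTT pools, against 2118, 2084, 1455, 1719 and 1466 in the CS pools. The KTT pools were all lower, with a log2 fold change of -0.80 (SE 0.16, adjusted p = 0.000759 by limma). The other probe sets of *sls* had log2 fold changes of -0.57 (adjusted p = 0.000365) and -0.40 (adjusted p = 0.000806 by limma).

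**Figure D1:**
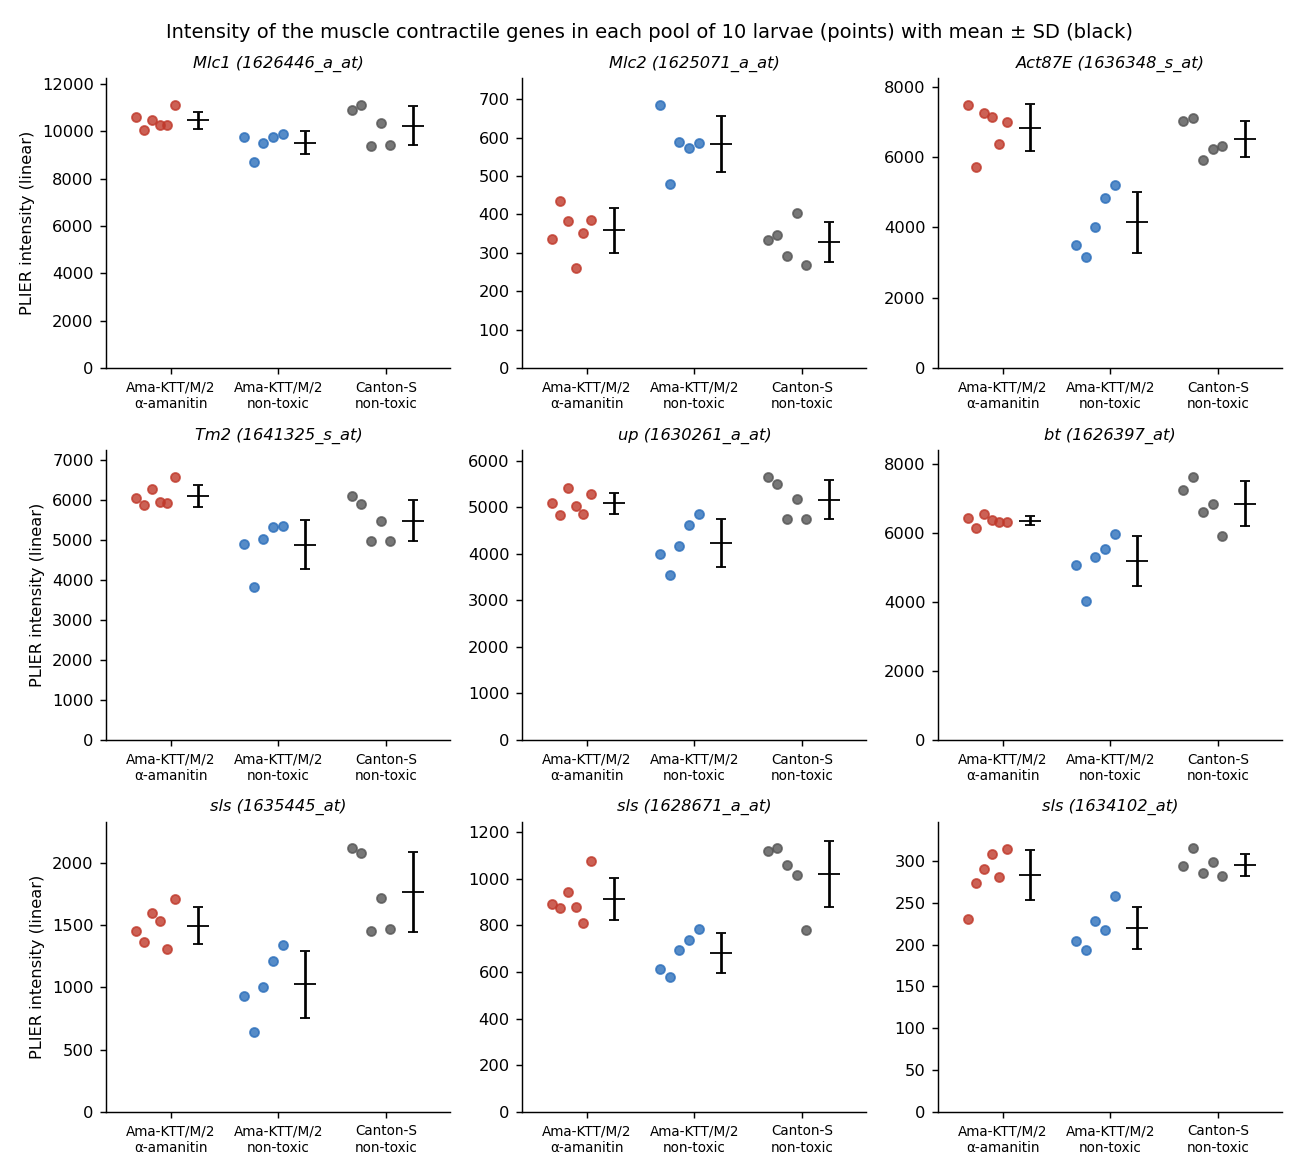
Intensity (PLIER, linear scale) of the 9 probe sets in every pool of 10 larvae, for KTT-LC50 (red), KTT (blue) and CS (grey), with the mean and SD in black. In the *Act87E* panel the blue points end at 5214, below the red and grey points, and in the *Mlc2* panel they start at 478, above the others.

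In this comparison 2 members were lower with no overlap of pools (*Act87E* and *sls*), where 14.5% of all genes were, and 1 was higher with no overlap (*Mlc2*), where 22.9% of all genes were. Without KTT replicate 2 the same 5 genes passed the test, with log2 fold changes of 0.87 for *Mlc2*, -0.58 for *Act87E*, -0.65 for *sls*, -0.32 for *bt* and -0.23 for *up*. *Tm2* had -0.09 and *Mlc1* -0.07 without it, and neither passed. Salivary gland and fat body genes moved with the stocks. In KTT, 6 of 6 glue genes and 2 of 3 fat body genes were lower, where 20.3% of all genes were. The fat body genes measured were *Lsp2*, *Fbp1* and *Fbp2*. Of 4 haemocyte markers, 3 were lower and 1 was higher in KTT, with sums of 1301 to 1499 in KTT pools and 1702 to 2395 in CS pools. The part of these differences in the change of muscle genes was not tested.

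On α-amanitin, Ama-KTT/M/2 larvae had higher intensities of actin, tropomyosin, troponin T and both giant proteins than on non-toxic food, and a lower intensity of the regulatory light chain. *Act87E*, *sls*, *Tm2*, *bt* and *up* rose in KTT-LC50 and *Mlc2* fell, while *Mlc1* did not pass the test. By limma, 5 of 7 genes were higher, where 21% of all genes were, and 1 was lower, where 19.6% of all genes were (40.6% in either direction). None reached 2-fold, where 2.31% of all genes were higher and 1.52% lower by that much, and the median log2 fold change of the 7 was 0.31, against 0.02 over all genes. The KTT pools also served in the comparison of the stocks, so that opposite signs in these comparisons partly rest on the same arrays.

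*Act87E* had a lowest, median and highest intensity of 5706, 7082 and 7489 in the 6 KTT-LC50 pools, against 3171, 4019 and 5214 in the 5 KTT pools. The ranges did not meet, and the log2 fold change was 0.74 (SE 0.11, adjusted p = 0.00014 by limma), a rise of 1.67-fold. *Tm2* had 5864, 5986 and 6580 in the KTT-LC50 pools, against 3831, 5019 and 5340 in the KTT pools. These ranges were also apart, with a log2 fold change of 0.33 (SE 0.08, adjusted p = 0.00577 by limma). *up* had 4834, 5058 and 5421 in the KTT-LC50 pools, against 3546, 4166 and 4853 in the KTT pools. They overlapped by KTT replicate 5 and KTT-LC50 replicate 2 alone, and the log2 fold change was 0.27 (SE 0.08, adjusted p = 0.012 by limma).

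*bt* had a lowest, median and highest intensity of 6164, 6360 and 6568 in the KTT-LC50 pools, against 4022, 5308 and 5985 in the KTT pools. All KTT-LC50 pools were higher. The SD was 135 in KTT-LC50 and 731 in KTT (382 without KTT replicate 2), and the difference in spread was not tested. The log2 fold change of *bt* was 0.31 (SE 0.09, adjusted p = 0.0109 by limma). The brightest *sls* probe set had 1312, 1491 and 1712 in the KTT-LC50 pools, against 643, 1003 and 1345 in the KTT pools. Only KTT replicate 5 was within the KTT-LC50 range, and the log2 fold change was 0.57 (SE 0.16, adjusted p = 0.00956 by limma). The other *sls* probe sets gave 0.42 (adjusted p = 0.00491) and 0.34 (adjusted p = 0.00339 by limma).

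*Mlc2* had a lowest, median and highest intensity of 261, 367 and 435 in the KTT-LC50 pools, against 478, 587 and 685 in the KTT pools. It fell with no overlap of pools, by 0.68 on the log2 scale (SE 0.12, adjusted p = 0.000469 by limma). *Mlc1* had 10042, 10379 and 11092 in the KTT-LC50 pools, against 8695, 9749 and 9863 in the KTT pools. Although the *Mlc1* pools did not overlap, its log2 fold change of 0.14 (95% interval 0.02 to 0.26) did not pass the test after adjustment (adjusted p = 0.0724 by limma).

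Pools did not overlap for 4 members that were higher in KTT-LC50 (*Mlc1*, *Act87E*, *Tm2* and *bt*), where 12.5% of all genes were, and for 1 that was lower (*Mlc2*), where 14.3% of all genes were. Without KTT replicate 2 the same 6 genes passed the test, with log2 fold changes of 0.65 for *Act87E*, 0.42 for *sls*, 0.25 for *Tm2*, 0.22 for *bt*, 0.21 for *up* and -0.75 for *Mlc2*, and *Mlc1* had 0.11 and did not pass.

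**Figure D2:**
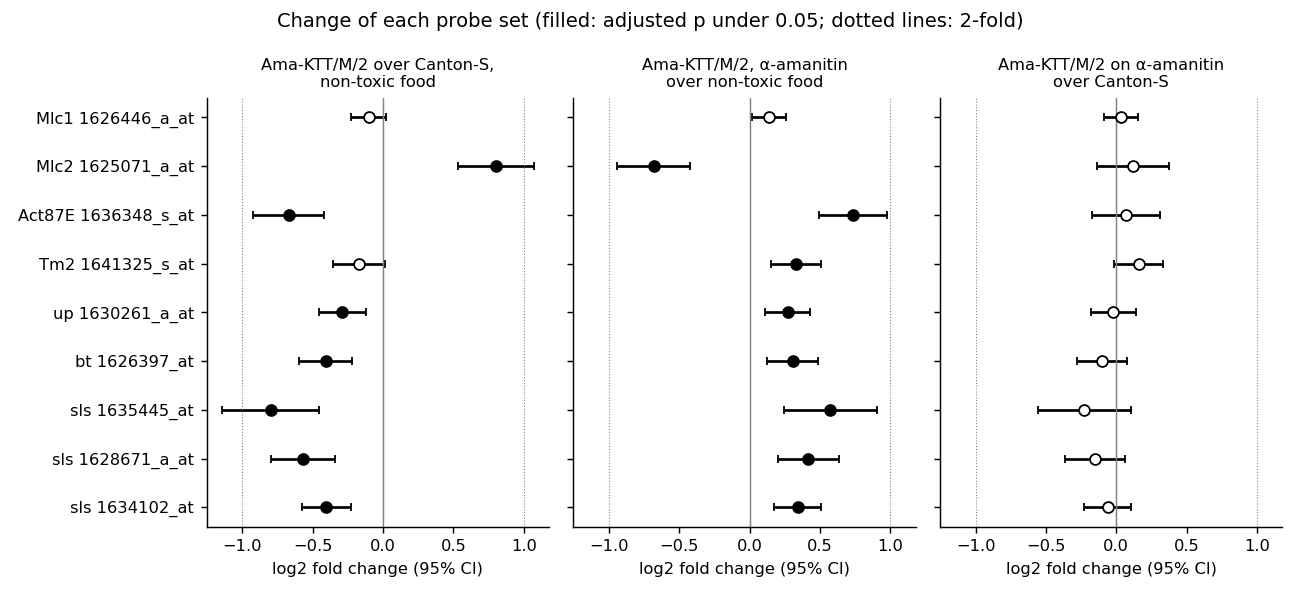
Log2 fold change on the log2(intensity + 16) scale with its 95% interval for the 9 probe sets in each of the 3 comparisons, filled where the adjusted p was under 0.05. *Mlc2* lies at 0.80 in the first panel and -0.68 in the second, on the other side of 0 from *Act87E* at -0.67 and 0.74, and no point is filled in the third.

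Ama-KTT/M/2 larvae on α-amanitin were then compared with Canton-S larvae on non-toxic food, in which stock and food both differ. None of the 7 genes was called by limma, where 35% of all genes were called in either direction. Before adjustment 0 of the 7 were under 0.05 in the limma fit across all probe sets, and *Tm2* was lowest with 0.073. None reached 2-fold, where 1.8% of all genes were higher and 1.97% lower by that much. All 7 had overlapping pools, where 13.3% of all genes were higher and 8.33% lower without overlap. Mean intensities were 6834 ± 667 in KTT-LC50 (SD, n = 6) and 6518 ± 522 in CS (SD, n = 5) for *Act87E*, and 1495 ± 149 in KTT-LC50 and 1768 ± 321 in CS for *sls*. *Mlc2* averaged 359 ± 58.4 in KTT-LC50 and 329 ± 52.4 in CS.

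The intervals show which differences these pools leave possible. The 95% interval of the log2 fold change was -0.18 to 0.31 for *Act87E*, -0.14 to 0.38 for *Mlc2* and -0.56 to 0.10 for *sls*. It was narrower for *Mlc1* (-0.09 to 0.16), *up* (-0.18 to 0.14), *bt* (-0.28 to 0.08) and *Tm2* (-0.02 to 0.33). The median log2 fold change of the 7 was 0.04, against 0.07 over all genes.

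The probe sets did not all show the same change. For each of 36 pairs of the 9 probe sets, the difference between their log2 fold changes was tested by a 2-sided exact permutation test over pools, with Benjamini-Hochberg adjustment over the pairs. The smallest exact p that the pools allow is 0.00794 for KTT against CS (252 splits) and 0.00216 for the other comparisons (462 splits). Of the 36 pairs, 29 differed between KTT and CS, 21 between KTT-LC50 and KTT and 7 between KTT-LC50 and CS. *Mlc2* differed from each of the other 8 probe sets in the first comparison, by 0.90 to 1.60 (adjusted p = 0.013 each, exact permutation test), and in the second as well (adjusted p = 0.00709 each, exact permutation test). Probe sets of 1 gene can differ as well: the brightest and the dimmest *sls* probe sets differed between KTT and CS by -0.40 (adjusted p = 0.0493, exact permutation test). Smaller differences between probe sets of different genes therefore cannot be told apart from differences in how probes respond. The larger differences of *Mlc2* rest on its 1 probe set, and how its probes respond was not tested. For KTT against CS, the log2 fold change of the *Act87E* probe set differed from that of *up* by -0.38 and from that of *bt* by -0.26 (adjusted p = 0.013 each, exact permutation test), within the difference seen for *sls*.

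On α-amanitin against non-toxic food, the log2 fold change of the *Act87E* probe set exceeded that of *Tm2* by 0.41 and that of *up* by 0.47 (adjusted p = 0.013 and 0.00709, exact permutation tests). *Tm2* and *up* differed there by 0.06 (adjusted p = 0.167, exact permutation test). Between KTT-LC50 and CS, where no member was called, 5 of the 7 differing pairs held *Tm2*, set against *Mlc1*, *up*, *bt* and 2 probe sets of *sls*, and the other 2 held *Mlc1*, set against *bt* and the brightest *sls* probe set. *Tm2* exceeded the brightest *sls* probe set by 0.39 (adjusted p = 0.013, exact permutation test). This was the largest difference of the 7 pairs. It was smaller in size than the -0.40 between *sls* probe sets for KTT against CS. These 7 differences therefore cannot be told apart from differences in how probes respond.

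Within groups, the members other than *Mlc2* varied together from pool to pool. Each pool's deviation from its group mean was correlated over the 16 arrays, which share a normalisation and hold pools of 3 groups, and the values are given as a description. The 15 pairs of genes without *Mlc2* had r between 0.63 and 0.98, with a median of 0.89. The 6 pairs with *Mlc2* had r between -0.03 and 0.50, with a median of 0.37. Without KTT replicate 2, over 15 arrays, they ran between 0.50 and 0.97 for pairs without *Mlc2* and between -0.32 and 0.39 for pairs with it. The highest r over all 16 was between *sls* and *up* and the lowest between *Mlc2* and *Act87E*.

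**Figure D3:**
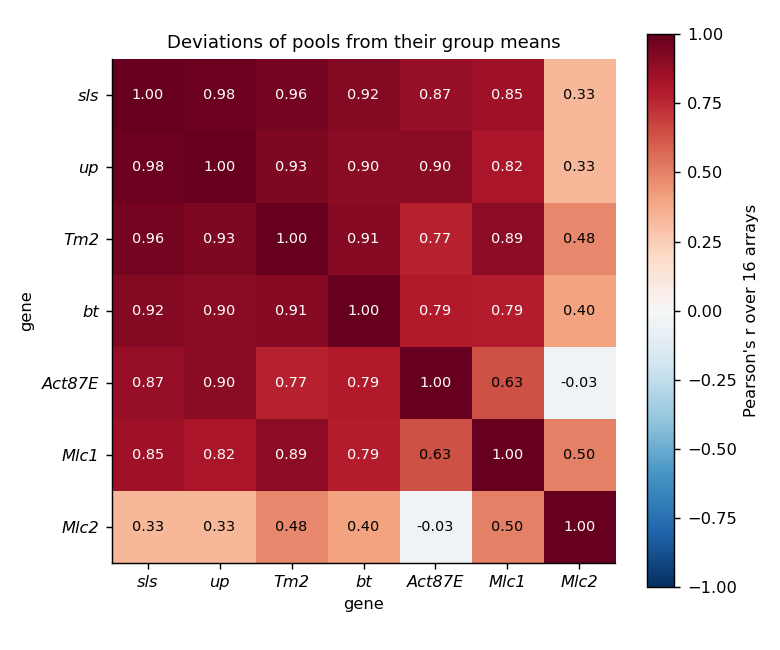
Pearson's r between the deviations of 7 genes from their group means over 16 arrays, as colour and number. The 6 genes other than *Mlc2* have r of 0.63 to 0.98 with each other, and the row of *Mlc2* runs between -0.03 and 0.50.

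Over all 7 members, the mean log2(intensity + 16) of the pools overlapped between the groups. It was 11.76 to 11.90 in KTT-LC50, 11.25 to 11.78 in KTT and 11.65 to 11.95 in CS. *Mlc2*, which changed in the other direction, was then left out with that direction known. The mean of the other 6 genes summed up each pool. It ranged between 12.26 and 12.44 in KTT-LC50, between 11.63 and 12.20 in KTT and between 12.23 and 12.52 in CS. By this mean without *Mlc2*, the KTT pools were below all others. The SD was 0.07 in KTT-LC50, 0.22 in KTT and 0.14 in CS, and it was 0.13 in KTT without replicate 2, which was left out after seeing the data. KTT replicate 2 was at 11.63 and KTT replicate 5 at 12.20, and KTT replicate 5 was also the KTT pool with the highest fat body sum (1221, against 11.9 to 48.1 in the other KTT pools). The order of the other KTT pools differed: replicate 2 had a fat body sum of 44.1, above replicates 1 (11.9) and 3 (37.8). The highest glue sum of KTT was in replicate 3 (14.5).

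KTT-LC50 replicate 2 stood apart from its group by the glue genes, with a sum of 8.04 where the other KTT-LC50 pools had at least 32377, and its fat body sum of 2795 was the lowest of its group. Its muscle mean without *Mlc2* was 12.26, the lowest of KTT-LC50 and above every KTT pool. With *Mlc2* included, its mean was 11.77, below KTT replicate 5 (11.78), the highest of KTT. By that mean KTT-LC50 replicates 4 and 5 were lower than KTT-LC50 replicate 2, both at 11.76. *Act87E* had 5706 in KTT-LC50 replicate 2, against at most 5214 in KTT pools, and *sls* had 1366, against at most 1345. *up* had 4834, which lies within the KTT range, and *Mlc2* had 435, the highest of KTT-LC50, against at least 478 in KTT pools. Leaving this pool out gave log2 fold changes for KTT-LC50 over KTT of 0.79 for *Act87E*, 0.60 for *sls* and -0.74 for *Mlc2*.

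**Figure D4:**
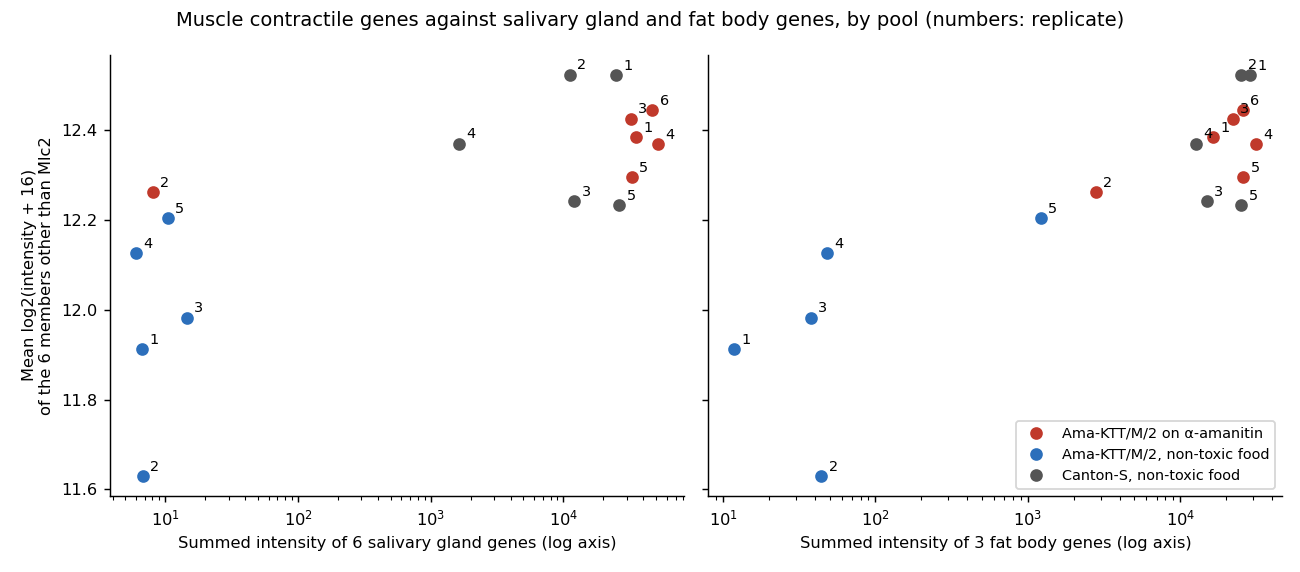
Mean log2(intensity + 16) of the 6 members other than *Mlc2* in each pool, against the summed intensity of 6 salivary gland genes (left) and 3 fat body genes (right) on log axes. The 5 KTT pools (blue) lie lowest, at 11.63 to 12.20, and KTT-LC50 replicate 2 (red) lies at 12.26 with a glue sum of 8.04.

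Other tissues also moved between the foods. All 6 glue genes and all 3 fat body genes were higher in KTT-LC50 than in KTT, where 21% of all genes were higher and 19.6% lower. Testis genes summed to 885 to 2929 in KTT-LC50 pools and 333 to 858 in KTT pools, with 7 of 11 higher. Protease genes of the midgut summed to 50749 to 57495 in KTT-LC50 pools and 58989 to 65472 in KTT pools, with 5 of 8 lower and 1 higher. Haemocyte genes summed to 1618 to 1966 in KTT-LC50 pools and 1301 to 1499 in KTT pools, with 2 of 4 higher. Nervous system genes overlapped, with 321 to 384 in KTT-LC50 pools and 310 to 371 in KTT pools. The part of these tissues in the change of muscle genes was not tested.

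Most other sarcomere genes that passed the test had the direction of *Act87E* and *sls*. Of 20 measured genes of the thick filament, thin filament and Z disc, 12 were lower and 1 was higher in KTT than in CS, beside 20.3% and 28.7% of all genes. Between KTT-LC50 and KTT, 13 of the 20 were higher and 0 were lower by limma (0 lower also before adjustment), beside 21% and 19.6% of all genes. Their median log2 fold changes were -0.29 for KTT over CS and 0.23 for KTT-LC50 over KTT. Both comparisons use the KTT arrays.

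In the thin filament, 6 of 9 genes were lower and 1 was higher in KTT than in CS, beside 20.3% and 28.7% of all genes. *TpnC73F*, a troponin C, averaged 3595 ± 338 in KTT and 5288 ± 545 in CS (SD, n = 5 each), a log2 fold change of -0.55 (adjusted p = 3.48e-05 by limma). *sals*, which lengthens thin filaments, had -0.48, and *Act88F*, an actin of flight muscle, had -0.40. The other lower genes were *tmod* (-0.34), *cpa* (-0.29) and *cpb* (-0.22). Within groups, the pool deviations of *cpa* and *cpb* had r of -0.14 and 0.30 with the mean of the members'. *TpnC4*, a troponin C of flight muscle, was the 1 gene that was higher, with 26.5 ± 5.23 in KTT and 8.69 ± 1.70 in CS, near the bottom of the scale. In KTT-LC50, 7 of the 9 were higher than in KTT, beside 21% of all genes. Among them were *TpnC73F* (0.52, adjusted p = 9.79e-05 by limma), *sals* (0.49), *Act88F* (0.42) and *TpnC4* (0.35).

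At the Z disc, where thin filaments are anchored, 0 of 6 genes were higher in KTT than in CS by limma, also before adjustment, beside 28.7% of all genes. Lower in KTT were 3 of the 6, beside 20.3% of all genes. These were *Zasp67* (-0.41), *Zasp66* (-0.32) and the muscle LIM protein gene *Mlp84B* (-0.29). In KTT-LC50, 5 of 6 were higher than in KTT, beside 21% of all genes. They included *Zasp66* (0.42), *Zasp52* (0.30), *Actn*, which encodes α-actinin (0.24), and *Zasp67* (0.23). Of 5 genes of the thick filament and its associated proteins, 3 were lower in KTT than in CS, beside 20.3% of all genes. They were *Strn-Mlck* (-0.40), *Mf* (-0.30) and *Prm*, the paramyosin gene (-0.28). Of these, *Mf* alone passed the test between KTT-LC50 and KTT (0.28, adjusted p = 0.00398 by limma).

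Muscle genes outside the sarcomere took both directions. Of 9 genes of muscle attachment, 3 were lower and 3 higher in KTT than in CS, beside 20.3% and 28.7% of all genes. *mys*, a β-integrin, had -0.34 and *stck*, an adaptor of the integrin complex, -0.23, whereas *Msp300*, which links nuclei to the cytoskeleton, had 0.38 and *Tsp*, the tendon matrix protein Thrombospondin, 0.31. In KTT-LC50, *mys* (0.27) and *tn* (0.24) were higher and *Tsp* (-0.44) was lower than in KTT. These were 2 and 1 of the 9 genes, beside 21% and 19.6% of all genes. Of 9 genes of excitation and calcium handling, 4 were higher and 1 was lower in KTT than in CS, and these 5 of 9 are near the 49% of all genes called in either direction. *Ca-alpha1D*, the L-type calcium channel of muscle, averaged 194 ± 13.4 in KTT and 130 ± 21.5 in CS (SD, n = 5 each), a log2 fold change of 0.53 (adjusted p = 0.0012 by limma). The glutamate receptor subunit gene *GluRIID* had 0.49 and *jp* (junctophilin) 0.21, and *Itpr*, a calcium release channel, had -0.30.

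Of the 9 genes of excitation and calcium handling, 2 were lower in KTT-LC50 than in KTT, near the 19.6% of all genes that were. These were *Ca-alpha1D* (-0.48) and *GluRIIA* (-0.24). By limma 0 of the 9 were higher, also before adjustment, beside 21% of all genes. Among 6 muscle transcription factors, *lmd* (0.45) and *nau* (0.41) were higher and *vg* (-0.66) and *ap* (-0.25) lower in KTT than in CS. Over all genes, 28.7% were higher and 20.3% lower. Between KTT-LC50 and KTT, *vg* had 0.54 and *lmd* -0.44. The probe set of *vg* is dim, and it averaged 35.1 ± 8.32 in KTT-LC50, 18.8 ± 3.81 in KTT and 39.9 ± 12.3 in CS. *vg* also works in the wing disc, and *ap* in the wing disc and nervous system, so their signal is not of muscle alone.

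In energy supply, *Argk1*, the arginine kinase that buffers ATP, averaged 11091 ± 373 in KTT-LC50 (SD, n = 6), 9250 ± 422 in KTT and 11189 ± 470 in CS (SD, n = 5 each). It was lower in KTT than in CS (-0.27, adjusted p = 0.00026) and higher in KTT-LC50 than in KTT (0.26, adjusted p = 0.000521 by limma). *Gpdh1*, the glycerol-3-phosphate dehydrogenase, had 0.08 between KTT and CS and was lower in KTT-LC50 than in KTT (-0.54, adjusted p = 0.000151 by limma). Of 8 listed non-muscle actin and myosin genes, which most cells use, 4 were measured, and *Act5C*, *Act42A*, *zip* and *sqh* were not. Of the 4, 3 were lower in KTT than in CS, beside 20.3% of all genes: *chic* (-0.31), *flr* (-0.24) and *Mlc-c* (-0.18). The same 3 were higher in KTT-LC50 than in KTT, with 0.28, 0.24 and 0.21, beside 21% of all genes. *tsr*, the brightest of the 4, had 0.03 and -0.01 and passed the test in neither comparison.

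**Figure D5:**
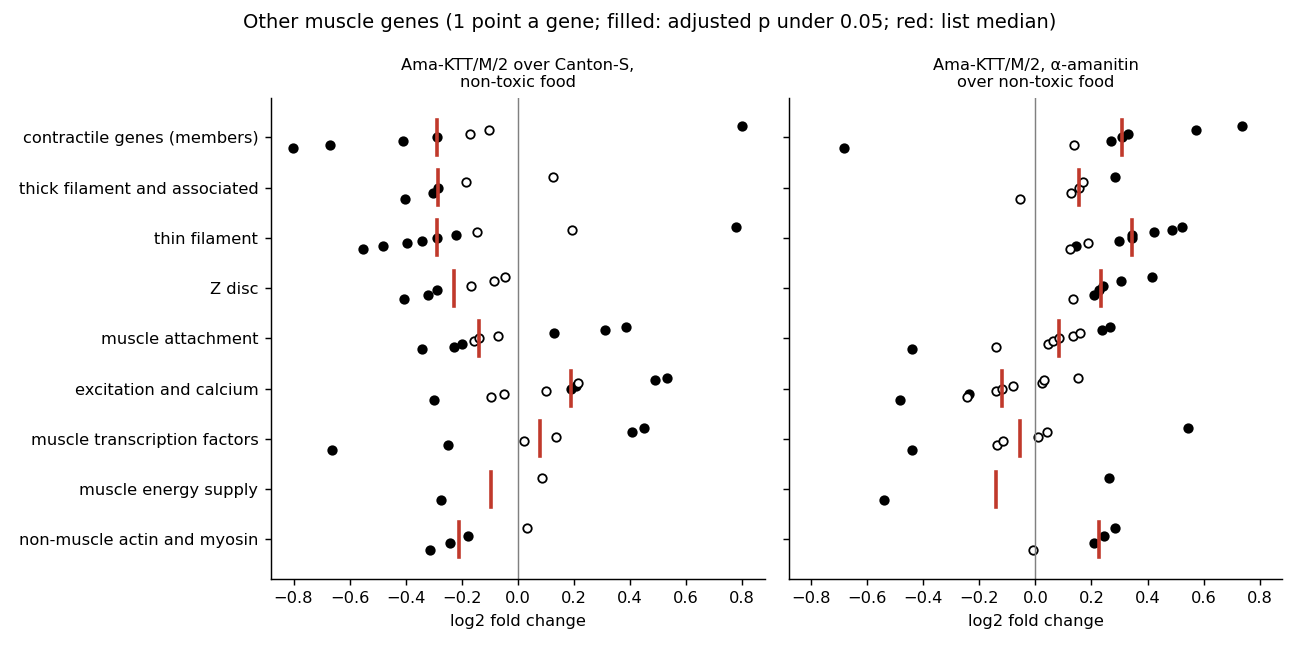
Log2 fold change of each measured gene in the muscle lists (1 point a gene, filled where the adjusted p was under 0.05) with the median of each list as a red bar, for KTT over CS (left) and KTT-LC50 over KTT (right). Thin filament genes have a median of -0.29 on the left and 0.34 on the right, and excitation and calcium genes 0.19 and -0.12.

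Between KTT-LC50 and CS, 3 of the 20 other sarcomere genes were higher and 3 lower, beside 22.8% and 12.1% of all genes. The higher ones were *TpnC4* (1.12), *TpnC41C* (0.38) and *Zasp52* (0.22), and the lower ones *Strn-Mlck* (-0.27), *tmod* (-0.20) and *Zasp67* (-0.18). Outside the sarcomere, *GluRIID* was higher (0.37, adjusted p = 4.14e-05 by limma) and *Gpdh1* lower (-0.46, adjusted p = 0.000549 by limma) in KTT-LC50 than in CS. Without CS replicate 1, 1 of the 20 sarcomere genes was lower.

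The genes outside the set whose pool-to-pool deviations were most like the mean of the members' were sought among 4831 candidates, over the same 16 arrays. *Desat1*, a fatty acid desaturase, had r = 0.97 and *Actn* 0.96. *Ald1*, the glycolytic aldolase, had 0.95, the α-integrin gene *if* and *P5CDh1* both had 0.94, and the β-tubulin *betaTub56D* had 0.94. *CtsK2* and *larp*, an RNA-binding protein gene, each had 0.93, and the next candidate, at 0.93, was not apart from them. KTT replicate 2 was lowest of its group for the members, and without it, a choice made after seeing the data, the r of these 8 genes ran between 0.85 and 0.95 over 15 arrays. *Desat1* was then still first of the candidates and *larp* 28th. Between groups, *Desat1* averaged 6231 in KTT-LC50, 6176 in KTT and 6250 in CS. Of the 8, *Actn* and *CtsK2* passed the test between KTT-LC50 and KTT (0.24 and 0.68) and *larp* between KTT and CS (0.30, adjusted p = 0.0295 by limma).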

How the data were processed

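Affymetrix Drosophila Genome 2.0 arrays, 16 in all, each held the RNA of 1 pool of 10 larvae, and the groups were taken from the sample labels. The authors used Expression Console 1.2 and made the deposited intensity values with PLIER, quantile normalization and mismatch adjustment; the values are linear. Of 18952 probe sets, 183 controls were left out. By the platform table, with symbols updated through a Release 6 gene table, 13647 had 1 gene, 402 several and 4720 none, and a gene is given by its brightest probe set. Probe sets of kinds that share probes with other transcripts also stand for *tmod*, *sals*, *Mlp84B*, *mys*, *tn*, *Tsp* and *chic*. The same holds for *Desat1*, *Ald1*, *P5CDh1*, *betaTub56D*, *CtsK2* and *larp*. Genome positions and sequences were not used here. Values were taken as log2(intensity + 16), on which fold changes of dim genes are understated, and fitted with limma 3.58.1 (R 4.3.3; lmFit, eBayes, 3 groups, no filter), 2-sided, with Benjamini-Hochberg adjustment over 18769 probe sets in each comparison. Calls were made at an adjusted p under 0.05. The fit was tested on simulated data. RankProd, which the methods also name, was not run. By the methods, the pools of a group were drawn at random from 1 shared set of tubes, so p-values measure the spread between such draws. The number of arrays limits the precision, and no 2 of them (120 pairs) held identical values.

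The members and gene lists were chosen with earlier results of these data known. Named are all members and up to 4 called genes with the largest change in each muscle list and comparison. Up to 2 of the brightest genes of each marker list are named as well, and the 8 candidates most like the members. Other names were chosen after their values were seen. The alternatives were other offsets, a filter on dim probe sets, other normalisations, the mean of a gene's probe sets, a replicate block, fits of 2 groups, another variance prior and leaving out each pool. Figures were drawn with matplotlib 3.10.9.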

Additional observations from a re-analysis of the deposited data

Results flagged for a closer look

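In 195 groups of 5 or 6 pools, the gap of the highest or lowest pool to its neighbour was set against the range of the group by Dixon's criterion, which chance alone exceeds in about 1 in 20 groups. It was exceeded in 11 groups, none of them of a contractile gene described above. In KTT-LC50, *Obsc* was high in replicate 6 (719.2, next 611.2), *GluRIIE* was high in replicate 6 (106.1, next 95.71) and *tsr* was low in replicate 4 (9475, next 10550). In KTT, replicate 2 was low for *Zasp52* (2039, next 2421), *P5CDh1* (1053, next 1414) and *larp* (1184, next 1688). KTT replicate 1 was low for *vg* (12.12, next 19.77) and *Argk1* (8517, next 9321), and KTT replicate 5 was low for *Ilk* (740.7, next 805.5). In CS, *Msp300* was low in replicate 5 (853.4, next 1165) and *Mlc-c* was high in replicate 2 (5841, next 5316).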

How the results depend on the processing

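The counts of called members, 5 between KTT and CS, 6 between KTT-LC50 and KTT and 0 between KTT-LC50 and CS, were the same in all 16 fits that left out 1 pool. After a further quantile normalisation, *Mlc1* (-0.23, adjusted p = 0.00241 by limma) and *Tm2* (-0.23, adjusted p = 0.0264) were also lower in KTT than in CS. *Mlc1* was called higher in KTT-LC50 than in KTT after it (0.21, adjusted p = 0.00381), with an offset of 64 (adjusted p = 0.0408), with dim probe sets filtered (adjusted p = 0.0443) and with another variance prior (adjusted p = 0.0447 by limma); over all its alternatives adjusted p ran between 0.00381 and 0.268. Between KTT-LC50 and CS, where nothing was called, signs turned: *Mlc1* had -0.0117 after quantile normalisation and -0.0386 with arrays scaled to 1 median, *Act87E* -0.0079 when scaled, and *up* 0.0148 after quantile normalisation and -0.0502 to 0.0137 over the fits without 1 pool (0.0137 without CS replicate 1, 0.003 without CS replicate 2). The median of the members there was -0.0386 when scaled, and the mean difference over the members was -0.0044 after quantile normalisation and -0.069 when scaled, against 0.0041.

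Of the other sarcomere genes, 0 were called higher in KTT than in CS with dim probe sets filtered (*TpnC4* was not tested), 2 after quantile normalisation and 1 to 2 without 1 pool (2 without CS replicate 5, KTT replicate 2 or KTT replicate 5), and 1 to 3 were called lower in KTT-LC50 than in CS. Same-numbered pools of KTT and CS correlated in their deviations at -0.02 to 0.23, those of KTT-LC50 and KTT at -0.03 to 0.27 and those of KTT-LC50 and CS at -0.42 to 0.07, so the numbers were not taken as pairs. With the replicate number as a block, *up* was no longer called between KTT-LC50 and KTT (0.26, adjusted p = 0.0538 by limma), and 8 in place of 13 genes of the muscle lists were called between KTT-LC50 and CS. The causes were not tested.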

Other observations

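Of 4 genes of adult flight muscle, *Act88F* averaged 120 ± 14.7 in KTT-LC50, 85.5 ± 12.8 in KTT and 117 ± 12.8 in CS, and the flight muscle protein gene *fln* 17.1 ± 1.32, 18.4 ± 1.80 and 15.6 ± 3.46 in the same order (SD, n = 6, 5 and 5), close to the offset of 16. *TpnC4* was the 1 gene of the 20 other sarcomere genes with a 2-fold difference, at 37.9 ± 4.75 in KTT-LC50 and 8.69 ± 1.70 in CS (log2 fold change 1.12, adjusted p = 1.52e-08 by limma), and it was higher in both KTT-LC50 and KTT than in CS. *Act79B*, an actin of adult muscle, averaged 648 ± 19.9 in KTT-LC50, 597 ± 69.0 in KTT and 662 ± 75.8 in CS, and it passed the test in none of the 3 comparisons.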
